A study of Mus musculus with 15 samples.

Results

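The 9 genes described here encode the adhesion receptors of keratinocytes and part of the matrix protein on which these cells sit. They are 7 integrin subunits, *Itga2*, *Itga3*, *Itga5*, *Itga6*, *Itgb1*, *Itgb4* and *Itgb6*, and 2 chains of laminin-332, *Lama3* and *Lamb3*. They were chosen by name, and all 9 symbols were found among the 21110 genes of the expression files. The rule that picked them used no expression value, although earlier results of these data were known when it was set.

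Integrins are receptors made of one alpha and one beta chain, and they tie the cytoskeleton to the extracellular matrix. Basal keratinocytes hold onto the basement membrane mainly through the integrin of *Itga6* and *Itgb4*, which sits in hemidesmosomes and binds laminin-332, a matrix trimer that holds the products of *Lama3* and *Lamb3*. The beta chain encoded by *Itgb1* pairs with several alpha chains to bind collagen, laminin or fibronectin, and the chain encoded by *Itgb6* pairs with that of *Itgav* and is known in skin for wounded epidermis and for activating latent TGF-beta.

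RNA from ear specimens of C57BL/6 mice was sequenced to ask how gene expression differs when *Socs3*, which encodes an inhibitor of JAK-STAT cytokine signaling, is deleted in keratinocytes. Each mouse gave 1 library. At 2 weeks after birth there were 4 mice of either genotype, and at 10 weeks there were 4 *Socs3* cKO mice but 3 of the wild type. *Socs3* cKO mice carried a conditional deletion of *Socs3* specific to keratin 5, a gene of basal keratinocytes. Whether the wild type mice carried a floxed allele or a Cre transgene is not given in the sources used here. The labels name keratinocytes as the source, but the RNA came from whole ear: the mean log2(FPKM + 0.1) of 6 fibroblast markers was 8.24 to 9.78 over the 15 libraries, and that of 5 basal keratinocyte markers was 7.48 to 8.60. In such bulk samples, fewer cells of a type and less RNA per cell cannot be told apart.

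Several libraries stood apart before any member was considered. *Socs3* itself was listed at 1.25, 9.32, 12.6 and 3.51 FPKM (reads scaled for gene length and for the reads mapped in the library) in *Socs3* cKO replicates 1 to 4 at 2 weeks, against 9.71 to 10.3 in the wild type. The older *Socs3* cKO mice had 29.8 to 47.7 FPKM and the older wild type mice 2.02 to 4.81 FPKM, so that a lower level was not seen at that age. Ear also holds cells outside the deletion, and which cells or alleles gave this transcript was not tested. *Socs3* cKO below therefore means a library labelled so. *Socs3* cKO replicate 1 at 2 weeks read GC-rich genes low. The GC-rich quartile of genes minus the GC-poor quartile, on the log2 scale and relative to the mean of all libraries, was -2.12 in this mouse, -0.28 to -0.18 in the other 3 mice of its group and 0.65 to 0.73 in the wild type at 2 weeks. The same measure for long minus short genes lay between -0.94 and -0.22 in the 3 older wild type mice. These mice also had 1414 to 3176 genes at 0 FPKM, against 4044 to 4423 in the other 12 libraries. The numbers that open the sample titles ran in a separate range for each group. The labels do not say what these numbers stand for. If they mark batches, genotype and batch cannot be told apart.

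*Itga2* (chr13:115626124-115722249, mm9, minus strand) and *Itgb6* (chr2:60436349-60560700, minus strand) were higher and lower, respectively, in every *Socs3* cKO mouse than in any wild type mouse at both ages. *Itga5* (chr15:103174720-103197194, minus strand) was lower in *Socs3* cKO at 2 weeks and higher at 10 weeks. The promoters of these 3 genes, from 250 bases before to 50 bases after the annotated start, are shown for these patterns. The sequences were taken from RefSeq on the GRCm38.p6 build, which is not the mm9 build of the expression files, and are written 5′ to 3′ on the strand of the gene. Capitals mark matches to any of 4 motifs on either strand: the AP-1 site TGANTCA, the STAT site TTCNNNGAA, the GC box GGGCGG and the TATA box TATAAA.
*Itga2*, chr13:114932051-114932350, minus strand: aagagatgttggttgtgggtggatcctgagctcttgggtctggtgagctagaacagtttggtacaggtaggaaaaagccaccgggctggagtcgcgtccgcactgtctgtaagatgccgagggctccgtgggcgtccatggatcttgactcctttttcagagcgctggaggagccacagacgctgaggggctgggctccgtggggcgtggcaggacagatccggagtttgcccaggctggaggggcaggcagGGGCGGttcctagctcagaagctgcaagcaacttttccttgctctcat
*Itgb6*, chr2:60722554-60722853, minus strand: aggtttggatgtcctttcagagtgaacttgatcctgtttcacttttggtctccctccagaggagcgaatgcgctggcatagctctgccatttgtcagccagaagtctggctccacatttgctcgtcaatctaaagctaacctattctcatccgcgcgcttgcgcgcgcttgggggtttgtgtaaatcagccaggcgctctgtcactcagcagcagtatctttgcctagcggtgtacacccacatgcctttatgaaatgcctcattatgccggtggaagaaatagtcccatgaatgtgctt
*Itga5*, chr15:103366742-103367041, minus strand: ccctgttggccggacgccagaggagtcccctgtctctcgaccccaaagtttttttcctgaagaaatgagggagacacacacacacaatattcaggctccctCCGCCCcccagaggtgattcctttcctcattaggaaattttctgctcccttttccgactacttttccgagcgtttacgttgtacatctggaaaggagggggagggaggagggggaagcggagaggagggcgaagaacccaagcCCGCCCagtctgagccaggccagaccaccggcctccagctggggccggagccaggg
The *Itga2* window held 1 GC box, 2 bases after the start. The *Itga5* window held 2 GC boxes, 149 and 6 bases before the start and both on the strand opposite to the gene. No match to the 4 motifs was found in the *Itgb6* window, nor in a second window for a downstream start of *Itgb6*. In all, 9 windows of 6 members (*Itga2*, *Itga3*, *Itga5*, *Itgb1*, *Itgb6* and *Lamb3*) were searched, and none of *Itga6*, *Itgb4* and *Lama3*. In the windows searched, 1 match to the AP-1 site was found, 12 bases after the second start of *Itga3*. No window held the STAT site or the TATA box. Of all 32851 windows in the table, 7.81% held the AP-1 site, 8.30% the STAT site, 35.7% the GC box and 13.6% the TATA box.

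In wild type ear at 2 weeks, *Itgb1*, the shared beta chain, was the most abundant member at 94.2 ± 3.08 FPKM (SD, n = 4). *Itgb4* followed at 36.1 ± 0.522 FPKM and *Lamb3* at 27.9 ± 0.733 FPKM. *Itga5*, *Itga6* and *Itga3* came next at 20.5 ± 2.42, 20 ± 5.53 and 15.8 ± 0.825 FPKM. The range of *Itga6* overlapped those of *Itga5* and *Itga3*, which did not overlap each other. *Lama3* at 7.69 ± 0.916, *Itgb6* at 2.01 ± 0.0875 and *Itga2* at 0.548 ± 0.206 FPKM came last, each below the range of the member before it. *Itgb1* was above every other member in all 15 mice. In *Socs3* cKO at 10 weeks *Itga6* was second at 48.4 ± 16.2 FPKM (SD, n = 4), with a range that overlapped that of *Lamb3* at 31.2 ± 2.07 FPKM, and *Itgb6* was last at 0.785 ± 0.134 FPKM. In the wild type at 10 weeks *Itga6* was at 6.12 ± 5.96 FPKM (SD, n = 3), with a range that overlapped those of *Itga3* and *Itga5*.

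**Figure D1:**
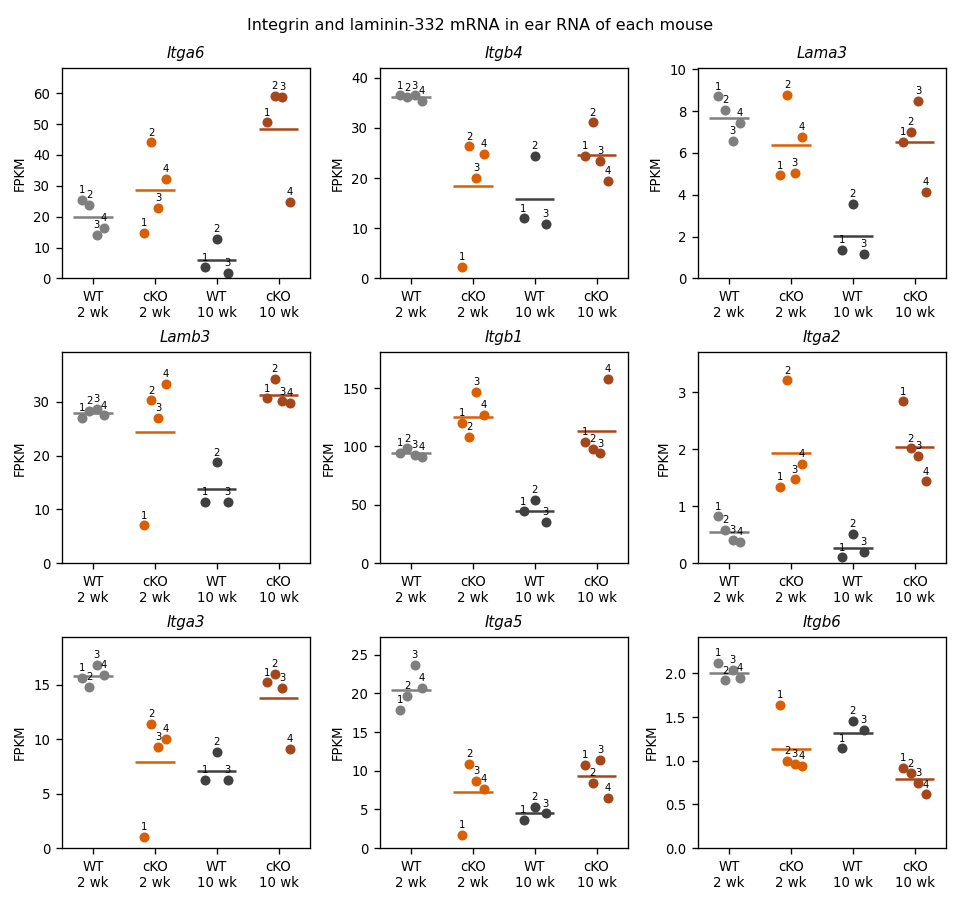
FPKM of the 9 members in each mouse, by group (WT, wild type; cKO, *Socs3* cKO; wk, weeks), with the replicate number beside each point and a line at the group mean. *Itga2* was higher and *Itgb6* lower in every *Socs3* cKO mouse than in every wild type mouse of the same age, and replicate 1 of *Socs3* cKO at 2 weeks was lowest of its group for every member except *Itgb1* and *Itgb6*.

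At 2 weeks the members did not move as one. *Itga2*, the collagen-binding alpha chain, was higher in *Socs3* cKO, and *Itga5*, the fibronectin-binding alpha chain, *Itga3*, *Itgb4* and *Itgb6* were lower in every *Socs3* cKO mouse than in any wild type mouse. With limma on log2(FPKM + 0.1) over 13524 genes, 1 of 9 members, *Itga2*, was called at the thresholds of the study (adjusted p below 0.01 and a change of at least 1 on the log2 scale), where 14.4% of all genes tested were called. A gene was tested where 3 or more mice had 1 FPKM or more, and *Itga2* passed this filter only through the *Socs3* cKO mice, so that its call is not independent of the filter. Groups without overlap were lower in *Socs3* cKO for 4 of 9 members, against 33.2% of all genes, and higher for 2 of 9, against 22.9%. The median log2 difference was -0.41 over the members and -0.21 over all genes tested.

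Of the chains of the hemidesmosome integrin, *Itgb4* was lower in all *Socs3* cKO mice at 2 weeks, while the groups overlapped for *Itga6*. With each library's trend with gene length and GC content removed, both differences were above 0, at 0.27 for *Itgb4* (adjusted p = 0.288) and 0.85 for *Itga6* (adjusted p = 0.0103). *Itgb4* (chr11:115836023-115869726), which anchors the receptor to keratin filaments, was at 36.5, 36.1, 36.5 and 35.4 FPKM in the wild type and at 2.35, 26.3, 20.1 and 24.8 FPKM in *Socs3* cKO. All *Socs3* cKO mice were below all wild type mice, and replicate 1 was far below the rest of its group. The log2 difference was -1.43 (SE 0.70, adjusted p = 0.114), and -0.61 (SE 0.10, adjusted p = 0.0013) without replicate 1. *Itga6* (chr2:71583673-71696473), its laminin-binding partner, was at 25.5, 23.8, 14.2 and 16.4 FPKM in the wild type and at 14.7, 44.1, 22.9 and 32.2 FPKM in *Socs3* cKO, and these groups overlapped (log2 difference 0.44, SE 0.35, adjusted p = 0.308).

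Neither laminin-332 member passed the test at 2 weeks, and the genotypes overlapped for both. *Lamb3* (chr1:195128151-195170072), the beta chain, was at 27.1 to 28.7 FPKM in the 4 wild type mice and at 7.07, 30.3, 27.0 and 33.4 FPKM in *Socs3* cKO, so that its difference of -0.41 (adjusted p = 0.46) turned to 0.11 (adjusted p = 0.321) without replicate 1. *Lama3*, the alpha chain, was at 6.56 to 8.71 FPKM in the wild type and 4.92 to 8.78 FPKM in *Socs3* cKO (-0.30, adjusted p = 0.264).

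Among the alpha chains that pair with *Itgb1*, *Itga2* was at 0.824, 0.583, 0.409 and 0.374 FPKM in the wild type and at 1.34, 3.21, 1.47 and 1.75 FPKM in *Socs3* cKO at 2 weeks. The genotypes did not overlap, although the level stayed low in both groups. The log2 difference was 1.62 (SE 0.33, adjusted p = 0.00692). This call was close to the threshold: the adjusted p was 0.00208 to 0.0251 with each mouse left out in turn, and above 0.01 without any 1 of the 4 wild type mice or without *Socs3* cKO replicate 3 or 4. *Itga5* was at 17.9, 19.7, 23.7 and 20.7 FPKM in the wild type and at 1.74, 10.9, 8.68 and 7.64 FPKM in *Socs3* cKO (-1.75, SE 0.51, adjusted p = 0.0239). The groups did not overlap, and without replicate 1 the difference was -1.17 (SE 0.15, adjusted p = 0.000254), past both thresholds. *Itga2* and *Itga5* were then the 2 of 9 members called, against 19.9% of all genes in that fit.

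*Itga3* (chr11:94905788-94938115), whose product binds laminin-332 outside hemidesmosomes, was at 14.8 to 16.8 FPKM in the wild type at 2 weeks and at 0.996, 11.4, 9.31 and 10.0 FPKM in *Socs3* cKO (-1.43, SE 0.69, adjusted p = 0.111, and -0.62, adjusted p = 0.00103, without replicate 1). *Itgb1* (chr8:131209554-131257100) was at 91.1 to 98.3 FPKM in the wild type and 108 to 147 FPKM in *Socs3* cKO. These groups did not overlap, with a difference of 0.40 (SE 0.13, adjusted p = 0.0319). *Itgb6* was at 2.12, 1.92, 2.04 and 1.95 FPKM in the wild type and at 1.64, 1.0, 0.965 and 0.938 FPKM in *Socs3* cKO (-0.80, SE 0.21, adjusted p = 0.0171). Replicate 1 was the highest *Socs3* cKO mouse for *Itgb6*, and the lowest for every other member except *Itgb1*.

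The place of replicate 1 within its group went with base composition. Its deviation from the mean of the other 3 *Socs3* cKO mice on the log2 scale was -3.28 for *Itgb4*, -3.23 for *Itga3*, -2.30 for *Itga5* and -2.08 for *Lamb3*, whose longest coding transcripts hold 57.3% to 60.0% G and C. The deviation was 0.71 for *Itgb6*, -0.07 for *Itgb1* and -0.56 for *Itga2*, at 44.1% to 45.3% G and C. *Itga6* at 48.9% deviated by -1.12 and *Lama3* at 51.3% by -0.44. With the length and GC trend removed, the 2-week difference of *Itgb4* turned to the 0.27 given above, that of *Itga3* was -0.02 (adjusted p = 0.966) and that of *Itga5* -0.41 (adjusted p = 0.0483). Those of *Itga2* and *Itgb6* were 1.66 (adjusted p = 0.0012) and -0.82 (adjusted p = 0.0146), close to their values without that step. The 2-week differences of *Itgb4*, *Itga3* and *Itga5* thus changed when the trends with length and GC content were removed together. Length and GC content were not removed separately, so their parts were not tested. Without replicate 1 these genes stayed lower, as given above.

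**Figure D2:**
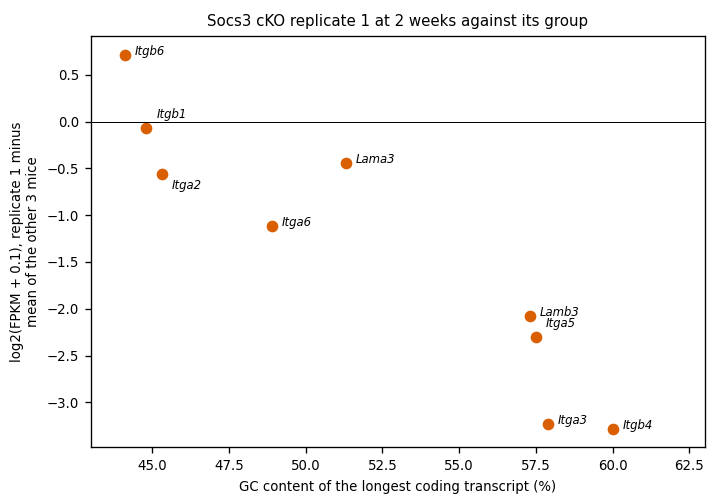
Deviation of *Socs3* cKO replicate 1 at 2 weeks from the mean of the other 3 mice of its group, on the scale of log2(FPKM + 0.1), against the GC content in percent of the longest coding transcript of each of the 9 members. The 4 members at 57.3% or more lie between -3.28 and -2.08, and the 3 members at 45.3% or less between -0.56 and 0.71.

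At 10 weeks most members were higher in *Socs3* cKO. *Itga6*, *Itga2*, *Lama3*, *Itgb1* and *Lamb3* rose, *Itga5* and *Itga3* were higher without passing both thresholds, and *Itgb6* was lower in all mice. The call was reached by 5 of 9 members, all higher, against 12.5% of the 13105 genes tested. *Itga2* again passed the FPKM filter only through the *Socs3* cKO mice and *Itgb6* only through the 3 wild type mice, which limits what a call of either can show. Groups without overlap were higher for 7 of 9 members, against 31.2% of all genes. The median difference was 1.21 over the members and 0.31 over all genes tested, and 83.7% of all called genes were higher. Under quantile normalization the median of all genes was -0.04 and 52.7% of called genes were higher. The members' differences at this age are therefore read beside a shift of genes in general.

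*Itga6* had the largest difference of the members. It was at 3.61, 12.9 and 1.83 FPKM in the wild type at 10 weeks and at 50.5, 59.2, 58.9 and 24.9 FPKM in *Socs3* cKO. The lowest *Socs3* cKO mouse was above the highest wild type mouse, while the wild type mice themselves differed widely. The difference was 3.34 on the log2 scale, or 10.1-fold (SE 0.56, adjusted p = 0.00241), and 2.68 (SE 0.44, adjusted p = 0.00239) with the length and GC trend removed. *Itgb4* was at 12.0, 24.4 and 10.9 FPKM in the wild type and 24.5, 31.1, 23.4 and 19.4 FPKM in *Socs3* cKO, and the groups overlapped through wild type replicate 2 (0.72, SE 0.29, adjusted p = 0.0722).

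Both laminin-332 members rose at 10 weeks. *Lama3* was at 1.35, 3.58 and 1.19 FPKM in the wild type and 6.52, 6.99, 8.50 and 4.14 FPKM in *Socs3* cKO (1.76, SE 0.39, adjusted p = 0.00745). *Lamb3* was at 11.4, 18.8 and 11.4 FPKM in the wild type and 30.7, 34.3, 30.1 and 29.9 FPKM in *Socs3* cKO (1.21, SE 0.20, adjusted p = 0.00242). Neither pair of groups overlapped, and in the wild type the highest mouse was replicate 2 for both genes. With the trend removed the differences of *Lama3* and *Lamb3* were 0.90 and 0.79, and that of *Lamb3* was 0.89 under quantile normalization, all below the threshold for size.

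*Itgb1* was at 44.3, 54.4 and 35.4 FPKM in the wild type at 10 weeks and 104, 97.7, 94.0 and 158 FPKM in *Socs3* cKO (1.33, SE 0.23, adjusted p = 0.0026, and 0.66, adjusted p = 0.0344, with the trend removed). *Itga2* was at 0.106, 0.511 and 0.199 FPKM in the wild type and 2.84, 2.02, 1.89 and 1.44 FPKM in *Socs3* cKO. All of the latter were higher than all of the former, by 2.64 on the log2 scale (SE 0.41, adjusted p = 0.00168), a value that the 0.1 added before the logarithm holds down at such low levels. *Itga5* was at 3.66 to 5.30 FPKM in the wild type and 6.48 to 11.4 FPKM in *Socs3* cKO (1.01, SE 0.24, adjusted p = 0.0108), and *Itga3* at 6.23 to 8.80 and 9.12 to 16.0 FPKM (0.93, SE 0.24, adjusted p = 0.0145).

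*Itgb6* went the other way at 10 weeks too. It was at 1.14, 1.46 and 1.35 FPKM in the wild type and at 0.920, 0.856, 0.750 and 0.614 FPKM in *Socs3* cKO. The groups did not overlap, and the difference was -0.69 (SE 0.27, adjusted p = 0.0716). With the length and GC trend removed it was -1.47 (SE 0.26, adjusted p = 0.00328) and passed both thresholds, although it was tested only because the wild type mice were above 1 FPKM, beside *Itga2* at 1.93 (adjusted p = 0.0038) and *Itga6*, which were the members still called higher, 2 of 9 against 5.96% of all genes. The number called also rested on the 3 wild type mice. It was 1, *Itga2*, without wild type replicate 1, 0 without replicate 3, when the 5 called members had adjusted p of 0.0105 to 0.0389, and 8 without replicate 2. In each of these 3 fits 8 members were tested, since *Itgb6* did not pass the filter. Of the 7 fits that each left out 1 mouse of either genotype, *Itga2* was called in 6, *Itga6*, *Itgb1* and *Lamb3* in 5 and *Lama3* in 2.

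**Figure D3:**
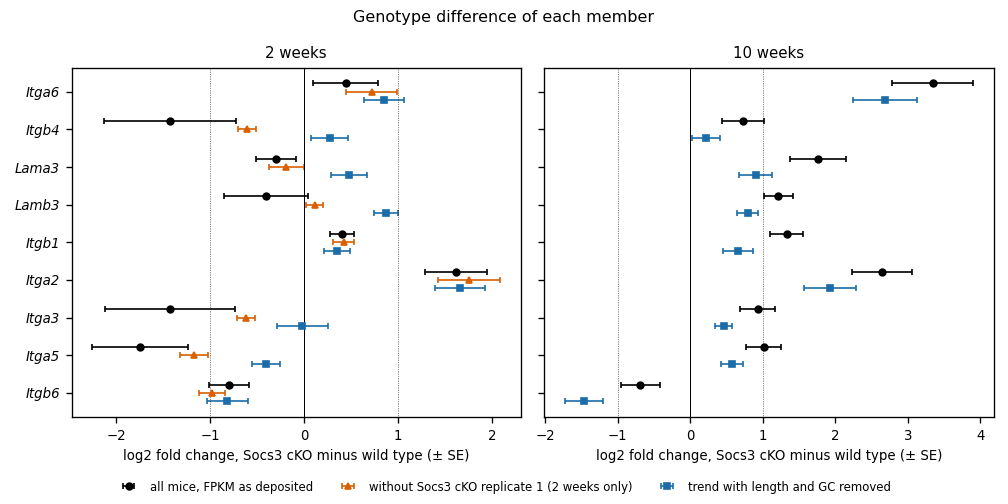
Difference of each member between genotypes, *Socs3* cKO minus wild type, on the scale of log2(FPKM + 0.1) with its limma SE, at 2 weeks (left) and 10 weeks (right). Black circles use all mice and FPKM as deposited, orange triangles leave out *Socs3* cKO replicate 1, blue squares have the trend with length and GC content removed, and dotted lines mark a change of 1. *Itga2* lies above 1 and *Itgb6* below 0 in every set, whereas *Itgb4* at 2 weeks moves from -1.43 to 0.27.

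Ratios between partner chains within a mouse do not depend on how libraries are scaled against each other. The *Itga6* to *Itgb4* ratio was 0.700, 0.660, 0.389 and 0.463 in the wild type at 2 weeks and 6.25, 1.68, 1.14 and 1.30 in *Socs3* cKO. The wild type mice of 10 weeks had ratios of 0.300, 0.530 and 0.168, and their *Socs3* cKO counterparts had 2.06, 1.91, 2.52 and 1.29. Thus *Itgb4* exceeded *Itga6* in all 7 wild type mice and *Itga6* exceeded *Itgb4* in all 8 *Socs3* cKO mice, in FPKM. The log2 ratio was 1.89 higher in *Socs3* cKO at 2 weeks (exact permutation test, 2-sided, p = 0.0286) and 2.66 higher at 10 weeks (exact p = 0.0571), which are the smallest p these group sizes allow. Adjusted over the 14 ratio tests, they were 0.0667 and 0.1. At these group sizes no ratio could have passed 0.05 after adjustment, whatever its values, so the adjusted p decides nothing here. The transcripts of *Itga6* and *Itgb4* differ in GC content, at 48.9% and 60.0%. With the length and GC trend removed, *Itga6* and *Itgb4* differed by 0.85 and 0.27 at 2 weeks, both in the same direction, and by 2.68 and 0.22 at 10 weeks, so that the difference between them was smaller at 2 weeks than in the ratio of FPKM.

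The *Itgb6* to *Itgav* ratio ranged from 0.171 to 0.194 over the younger wild type mice and from 0.0690 to 0.123 over the *Socs3* cKO mice of that age. The older mice had 0.0976 to 0.154 and 0.0499 to 0.0701, in the same order. In *Socs3* cKO the ratio was lower by 0.99 on the log2 scale at both ages without overlap (log2 difference -0.99, exact p = 0.0286 and 0.0571), while *Itgav* itself was at 10.7 to 11.2 and 9.99 to 14.5 FPKM at 2 weeks and 8.74 to 14.1 and 12.3 to 14.7 FPKM at 10 weeks, with overlap at each age. Of the alpha chains over *Itgb1*, the ratio of *Itga2* was higher by 1.40 at 2 weeks and those of *Itga3* and *Itga5* differed by -1.87 and -2.18, each without overlap (exact p = 0.0286). At 10 weeks these 3 ratios overlapped between genotypes, at 1.84 (exact p = 0.114), -0.39 (exact p = 0.514) and -0.30 (exact p = 0.686). The transcripts of *Itga3* and *Itga5* hold 57.9% and 57.5% G and C, beside 44.8% for *Itgb1*. *Socs3* cKO replicate 1 at 2 weeks had the lowest log2 ratios of both to *Itgb1*, at -6.92 and -6.11. With the length and GC trend removed, the 2-week differences of *Itga3* and *Itga5* were smaller, as given above. The part of GC content in these ratios was not tested. The *Lama3* to *Lamb3* ratio overlapped at both ages (0.11, exact p = 0.914, and 0.61, exact p = 0.114).

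*Itgb4* was also set against *Krt14*, which encodes a keratin of basal cells. The log2 ratio lay between -5.53 and -5.49 in all 4 younger wild type mice and was -10.85, -6.57, -7.16 and -7.33 in *Socs3* cKO, a difference of -2.46 without overlap (exact p = 0.0286). The older wild type mice had values of -8.11 to -6.12, which took in the -7.47 to -6.59 of *Socs3* cKO (0.08, exact p = 0.971). *Krt14* itself was called higher in *Socs3* cKO at 2 weeks by 1.02 (SE 0.21, adjusted p = 0.0069), and its difference is part of that ratio. It was the 1 of 5 basal keratinocyte markers above 0 at this age, beside -2.07 for *Cdh3*, -0.64 for *Krt15*, -0.39 for *Krt5* and -0.03 for *Trp63*. The 2-week difference of *Itgb4* changed sign with the length and GC trend removed, as given above. In all, 6 of 7 ratios did not overlap at 2 weeks and 2 of 7 at 10 weeks. How often ratios of other gene pairs lack overlap was not computed, so these counts have no background. Of single genes tested at 2 weeks, 33.2% were lower and 22.9% higher in *Socs3* cKO without overlap.

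**Figure D4:**
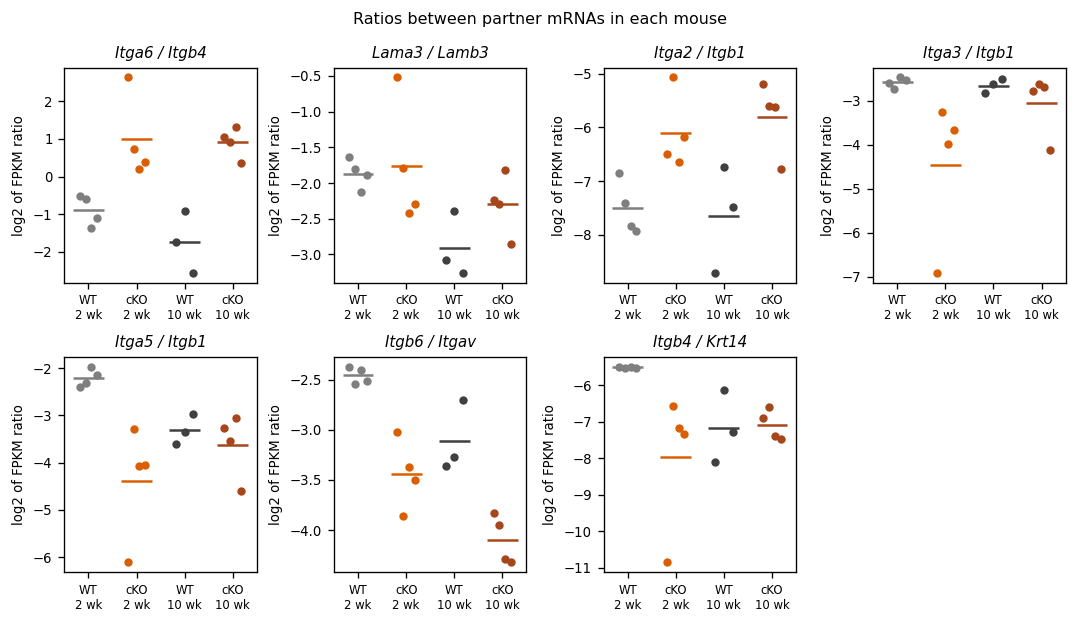
Log2 of the FPKM ratio between partner chains, and of *Itgb4* to *Krt14*, in each mouse by group (WT, wild type; cKO, *Socs3* cKO; wk, weeks), with a line at the group mean. The *Itga6* to *Itgb4* ratio lies below 0 in every wild type mouse and above 0 in every *Socs3* cKO mouse, and the *Itgb6* to *Itgav* ratio is lower in *Socs3* cKO at both ages.

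Whether the genotype difference changed with age was tested as an interaction on all 4 groups. It was called for 3 of 9 members at adjusted p below 0.01, all more positive at 10 weeks, against 18.5% of 13937 genes in that direction. These were *Itga6* at 2.90 (SE 0.73, adjusted p = 0.00645), *Itga5* at 2.76 (SE 0.62, adjusted p = 0.00341) and *Lama3* at 2.06 (SE 0.46, adjusted p = 0.00361). The interaction was 2.36 for *Itga3* (adjusted p = 0.0282), 2.15 for *Itgb4* (adjusted p = 0.0483), 1.62 for *Lamb3* (adjusted p = 0.0257) and 0.93 for *Itgb1* (adjusted p = 0.012). For *Itga2* and *Itgb6* it was 1.02 (adjusted p = 0.131) and 0.12 (adjusted p = 0.77), and a difference between ages was not detected. The median over all genes tested was 0.55. Under quantile normalization 2 were called, *Itga5* and *Itgb1*, where 1805 of 13937 genes were called more positive. Without *Socs3* cKO replicate 1 at 2 weeks 6 members were called, with *Itga3*, *Itgb4* and *Lamb3* added. In that fit 3607 of 13909 genes were called more positive. With the length and GC trend removed 1 was called, *Itga5*, at 1.02 (adjusted p = 0.00206), where 1343 of 13368 genes were called more positive. None was called without wild type replicate 1 or 3 at 10 weeks, when the adjusted p of the 3 genes was above 0.01. Of the 15 fits that each left out 1 mouse, *Itga5* and *Lama3* were called in 13 and *Itga6* in 6.

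By construction the interaction is the age difference in *Socs3* cKO minus that in the wild type, so the age differences below are its parts and no separate evidence. In the wild type 4 of 9 members were called lower at 10 than at 2 weeks, against 19.4% of all genes in that direction: *Itga5* fell by 2.18 on the log2 scale (SE 0.45, adjusted p = 0.00154), *Itga6* fell by 2.11 (SE 0.54, adjusted p = 0.00552), *Lama3* fell by 2.03 (SE 0.34, adjusted p = 0.000353) and *Itgb1* fell by 1.09 (SE 0.19, adjusted p = 0.000508). The other 5 had differences of -1.29 to -0.58. *Itga5* and *Lama3* were called in all 7 fits that left out 1 wild type mouse, *Itgb1* in 6 and *Itga6* in 2. The count was 3 with median-of-ratios scaling, without *Itgb1*, and 3 with quantile normalization, without *Itga6*. With the trend removed none of the 9 was called, and 4 of 9 were above 0, *Itgb4* at 0.22, *Itga3* at 0.16, *Lamb3* at 0.14 and *Itgb6* at 0.09. In *Socs3* cKO the limma fit called 0 of 9 members between ages, against 3.54% of all genes, and 2 members, *Itga3* at 1.20 (adjusted p = 0.18) and *Itgb6* at -0.46 (adjusted p = 0.177), were below 0.05 before adjustment. These contrasts share their mice with the genotype comparisons and are set beside them as values.

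Other genes of the adhesion system were counted from lists by function. Of 18 other integrin subunits tested, 1 rose and 1 fell at 2 weeks, beside 14.4% of all genes called in either direction. *Itgb8*, a second beta chain that pairs with *Itgav* and activates latent TGF-beta, rose by 2.57 (SE 0.18, adjusted p = 6.56e-05), and *Itga11*, a collagen-binding chain of fibroblasts, fell by 2.68 (SE 0.45, adjusted p = 0.003). At 10 weeks 8 of 18 rose and none fell, beside the 12.5% of all genes called higher, with a median difference of 0.90. With the length and GC trend removed 3 of 18 rose, with a median of 0.37, beside 5.96% of all genes. The 8 were led by *Itgb8* at 3.18 (SE 0.37, adjusted p = 0.000438), *Itgal*, the alpha chain of the leukocyte integrin LFA-1, at 2.23 (adjusted p = 0.000962), and *Itga1*, a collagen-binding chain, at 1.84 (adjusted p = 0.00122). *Itgae*, *Itgam*, *Itgax* and *Itgb2*, which are leukocyte integrin chains, and *Itga8* were the others. *Itgb8* stayed called with the length and GC trend removed, at 2.32 at 2 weeks and 2.18 at 10 weeks. *Itgb8* and *Itgb6*, which share the partner *Itgav*, thus differed from the wild type in opposite directions at both ages, with *Itgb6* short of both thresholds.

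The 6 other laminin chains that were tested had no call at 2 weeks, beside 14.4% of all genes. At 10 weeks 5 were called, all higher, beside 12.5% of all genes called higher, with a median difference of 1.45. With the trend removed 1 of 6 was called higher, beside 5.96% of all genes, and the median was 0.82. *Lama2* at 2.13 (adjusted p = 0.000542), *Lamc3* at 2.04 (adjusted p = 0.00694) and *Lamc1* at 1.72 (adjusted p = 0.0018) were the largest, and *Lamb2* and *Lama4* were at 1.18 and 1.08. Of 5 hemidesmosome and anchoring fibril genes, none was called at 2 weeks and *Dst*, which encodes the plakin that ties *Itgb4* to keratin filaments, rose by 2.03 at 10 weeks (SE 0.26, adjusted p = 0.000713). It was the 1 of 5 called higher at that age, beside 12.5% of all genes. *Col17a1*, the collagen that spans the hemidesmosome, differed by -0.83 at the younger age (adjusted p = 0.174) and by 1.03 at the older (adjusted p = 0.0125). *Col7a1*, the anchoring fibril collagen, differed by -1.95 (adjusted p = 0.0321) and -0.13 (adjusted p = 0.608).

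Basement membrane proteins and integrin ligands were lower at 2 weeks where they were called: 6 of 14 fell and none rose, beside 7.19% of all genes called lower, with a median difference of -1.55 against -0.21 over all genes. *Nid2*, which links laminin to collagen IV, fell by 2.56 (adjusted p = 0.00114), *Col4a1* fell by 1.95 (adjusted p = 0.00249) and *Npnt*, a ligand of the *Itga8* integrin, fell by 1.71 (adjusted p = 0.00583), and *Fn1*, *Fras1* and *Tnc* were the others. Without replicate 1, 9 of 14 were called lower, beside 1753 of 13451 genes. With the trend removed 2 of 14 were called lower, *Nid2* and *Npnt*, beside 773 of 13037 genes. At 10 weeks 5 of 13 rose and none fell, beside 12.5% of all genes called higher. The largest were *Npnt* at 3.06 (adjusted p = 0.000402), *Nid1* at 1.79 (adjusted p = 0.000235) and *Tnc* at 1.70 (adjusted p = 0.0017), ahead of *Col4a2* and *Col4a1*. The median difference at that age was 1.02, and with the trend removed it was 0.22 and 2 of 13 were called higher, beside 5.96% of all genes. *Npnt* was thus called in opposite directions at the 2 ages. Of 18 genes of the integrin adhesion complex, which couples integrins to actin, *Zyx* fell by 2.26 (adjusted p = 0.00822) and *Actn1* fell by 1.94 (adjusted p = 0.00268) at 2 weeks, beside 7.19% of all genes called lower. Without replicate 1, 4 of 18 were called lower, again beside 1753 of 13451 genes. At 10 weeks 6 of 18 rose, beside 12.5% of all genes, with *Vcl* at 1.31, *Pxn* at 1.24 and *Actn4* at 1.17 the largest. With the trend removed none was called, beside 5.96% of all genes called higher.

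Markers of other cell types moved with the groups as well. At 2 weeks the mean log2(FPKM + 0.1) of 6 hair shaft keratin genes lay between 6.40 and 7.11 for wild type mice but between -2.10 and 0.73 for *Socs3* cKO mice. All 6 of 6 were called lower, beside 7.19% of all genes. That of 5 skeletal muscle markers was 6.51 to 7.08 and 7.65 to 8.37. At 10 weeks 6 leukocyte markers stood at 4.10 to 4.39 for wild type mice and at 4.75 to 4.98 for *Socs3* cKO mice. In the same order, 6 endothelial markers stood at 1.42 to 1.91 and 2.53 to 2.94. The 5 basal keratinocyte markers stood at 7.63 to 8.01 and 8.03 to 8.60, barely apart. Of these lists 3 of 6, 3 of 6 and 1 of 5 genes were called higher, beside 12.5% of all genes. *Krt15*, a basal marker, was lower in every *Socs3* cKO mouse (-1.03, limma adjusted p = 0.0302). Other lists lay apart too, such as 4 stress keratins at 4.55 to 5.43 and 6.89 to 9.11. The 6 fibroblast markers were lower in *Socs3* cKO at 2 weeks and higher at 10 weeks. AP-1 and immediate-early genes, of which 10 of 11 rose at 10 weeks beside 12.5% of all genes, were at 2.31 to 3.29 and 6.16 to 6.86. The part of these differences in those of the members was not tested.

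*Itga6* and *Itga5* were each compared with 13928 genes for the likeness of their profiles over the 15 libraries, as the root mean square difference of log2(FPKM + 0.1) after centring each gene on its mean. For *Itga6* the nearest genes outside the members were *Gpam* at 0.25, *Mef2a* at 0.28 and *Megf9* at 0.32, and the nearest member was *Itga2* at 0.66. Its partner *Itgb4* was at 1.29. For *Itga5* they were *Anks1* at 0.16, *Fam65a* at 0.18 and *Abl1* at 0.19, with transcripts of 57.1% to 58.6% G and C beside 57.5% for *Itga5*, and the nearest member was *Itgb4* at 0.47. The libraries share their trends with GC content and length, so these likenesses are descriptions.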

How the data were processed

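Total RNA of ear from 15 mice was sequenced by the authors as single reads. Per the labels and the study's methods, the reads were aligned to mm9 with TopHat2 2.1.0. The submitters' processing notes also name Cufflinks. The authors deposited 1 FPKM value for each of 21110 genes and library, normalized for gene length and mapped reads. The authors tested counts with edgeR. Counts were not used here. No source used here states how deeply a library was sequenced. If the smallest common step between low FPKM values is 1 read, the libraries hold 6500000 to 17000000 reads, an estimate used in no test.

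The study's methods state more wild type mice than the libraries used here, and the others were not analysed here. The labels gave each mouse its group and replicate number, and replicates are separate mice by the study's methods. Values were tested as log2(FPKM + 0.1) with limma 3.58.1 (R 4.3.3, prior variance with a trend). A gene was tested where 3 or more of the mice fitted had an FPKM of 1 or more. Genotype was fitted within each age, and the interaction and age contrasts on all 4 groups. Tests were 2-sided, with Benjamini-Hochberg adjustment over all genes tested. Ratios were compared with exact permutation tests over mice (scipy 1.17.1, numpy 2.4.6, pandas 2.3.3, Python 3.11.15, figures with matplotlib 3.10.9). The limma step was tested on simulated data. Alternatives covered the pseudocount, the filter, scaling, the prior variance, a replicate block, each library left out, and removal of each library's trend with gene length and GC content, fitted on 13368 genes with an annotated coding transcript. FPKM are scaled within a library, so a few abundant genes can shift the rest.

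The members, lists and tests were chosen with earlier results of these data known. The genes named were all 9 members, up to 3 called genes with the largest change in each list and comparison, ratio partners, members of small counts, and the 3 genes nearest in profile to Itga6 and Itga5. The few others were chosen after their values were seen. Values of 1 further gene are not reported here.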

Additional observations from a re-analysis of the deposited data

Results flagged for a closer look

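Among groups of 4 mice, 1 mouse lay far from the other 3 in 6 cases, judged by its gap to the nearest mouse as a share of the group's range. Chance flags about 1 in 20 groups, and these values share libraries. In Socs3 cKO at 2 weeks this share was 0.916 for Itga3, 0.888 for Itgb4 and 0.863 for Lamb3, with replicate 1 lowest each time, and 0.886 for Itgb6, with replicate 1 highest. In Socs3 cKO at 10 weeks it was 0.845 for Itga3 and 0.888 for the log2 ratio of Itga3 to Itgb1, with replicate 4 lowest in both.

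For 3 members the genotype difference itself differed between the ages by limma's interaction test, in log2 units: Itga6 at 2.90, Itga5 at 2.76 and Lama3 at 2.06. The shares of genes called in this contrast and the values under other settings stand with the results above and below.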

How the results depend on the processing

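Each of the 9 members kept its direction at 10 weeks under every alternative run. Over the alternatives to each member's genotype differences, interaction and wild type age difference, and to the age differences of Itga3 and Itgb6 in Socs3 cKO, 618 values kept their side of the threshold and their direction, 56 lost a call, 17 gained one and 15 changed sign. The number of members called at 2 weeks, 1, was 0 with a pseudocount of 1 and with the replicate block, 2 with quantile normalization and 2 with all 4 groups in one fit, and 0 to 2 with 1 mouse left out. At 10 weeks it was 5, or 4 without a filter, with median-of-ratios scaling and with all 4 groups in one fit. Under quantile normalization it stayed at 5, although Lamb3 lost its call (0.89) and Itgb6 was called lower (-1.21, limma adjusted p = 0.00545). The count was 6 with the stricter filter and with the replicate block. It was 3 with the trend with length and GC content removed, and 0 to 8 with 1 mouse left out. For the interaction it was 3, or 2 with quantile normalization, 1 with the trend removed and 0 to 6 with 1 mouse left out. For age in the wild type it was 4, or 3 with either quantile normalization or median-of-ratios scaling, 0 with the trend removed and 2 to 4 with 1 mouse left out. Of the partner ratios at 10 weeks, 2 did not overlap, or 2 to 4 with 1 mouse left out. With mice paired by replicate number, 4 ratios differed in the same direction in every pair, a looser measure than no overlap. The cause of these shifts was not tested.

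At 2 weeks the sign turned for Itgb4 (0.27 with the trend removed), Lama3 (0.11 with quantile normalization and 0.48 with the trend removed) and Lamb3 (0.87 with the trend removed, and -0.63 to 0.11 with 1 mouse left out). The interaction turned for Itgb4 (-0.01), Lamb3 (-0.04) and Itgb6 (-0.64) with the trend removed, and for Itgb6 also with median-of-ratios scaling (-0.33) and quantile normalization (-0.75). The age difference in the wild type turned with the trend removed for Itgb4 (0.22), Itga3 (0.16), Lamb3 (0.14) and Itgb6 (0.09), and for Itgb6 with quantile normalization (0.13). Replicate numbers were shared between groups, but mice with the same number did not deviate together, so the replicate block is given only here. Fits that leave out 1 of the 3 wild type mice at 10 weeks rest on few mice, and low FPKM, as for Itga2 and Itgb6, carry a counting error that could not be derived.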
